A study of Mus musculus with 24 samples.

Results

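ISG15 is a small ubiquitin-like protein that interferon-treated cells attach to other proteins, and 6 genes encoding the modifier and the enzymes that attach and remove it were followed here in the tissues of Trex1-deficient mice. The 6 genes were taken by symbol for their roles in this pathway, although earlier results of these data were known at that point. They make up 6 of the 54532 genes in the count tables. *Isg15* encodes the modifier, *Uba7* the activating enzyme (E1), *Ube2l6* the conjugating enzyme (E2), *Herc6* the main ISG15 ligase (E3) of the mouse, *Trim25* an interferon-inducible E3 ligase that also ubiquitinates the RNA sensor RIG-I, and *Usp18* the protease that takes ISG15 off again. All 6 passed the filter on low counts in each of the 4 tissues.

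Trex1-/- mice, named Trex1-KO in the sample labels, had been sampled for RNA-Seq in 4 organs (tongue, stomach, heart and muscle), with 3 samples in each of the 8 groups of tissue and treatment. TREX1 is a DNA exonuclease, and its loss leaves self DNA that activates cGAS and STING and drives type I interferon. Both groups carried the deletion, so no wild-type level was analysed here. One group received SN-011, a STING antagonist, and the other, called control below, received vehicle of 1% Tween 80 in PBS per the study's methods but is called untreated in the labels. The methods state 10 mg/kg intraperitoneally every day for 2 weeks, starting from an age of 1 month, whereas the labels state 5 mg/kg, 3 times each week for 4 weeks. The comparison asks how far blocking STING lowers an interferon-driven enzyme cascade in each organ. The Trex1-/- mice, on a C57BL/6J background per the methods, came from matings of heterozygous parents. Nothing in the labels says which tissues came from the same mouse, and the p-values measure the spread between these samples alone.

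The total count per sample was 14253416 to 18443329. One library, replicate 2 of the SN-011 muscles, stood apart before any comparison was made. It detected 11546 genes, whereas each of the other libraries detected 19798 to 24264. Of 2056 genes that averaged 100 to 200 counts over the other 5 muscle libraries, 400 (19.5%) were at 0 in this library and at most 1 was at 0 in any of the others. The sex-linked transcripts split the control groups. *Xist* gave 3060 to 13811 counts in control replicate 1 of every tissue, where *Ddx3y* on the Y chromosome gave at most 3, and the reverse held elsewhere (*Xist* at most 20, *Ddx3y* 825 or more), so control replicate 1 differed in sex from the other controls and from all SN-011 libraries. The defining markers were present in the labelled organs, with the 4 cardiac markers summing to 16300 to 28690 CPM (counts scaled to library size) in the heart and the 4 skeletal muscle markers to 113000 to 185500 CPM in the muscle. The 4 tongue epithelial markers summed to 5686 to 47210 CPM in the tongue, and tongue control replicate 1 had the lowest of these values. The 4 stomach markers summed to 3978 to 52820 CPM in the stomach, but they also reached 722 CPM in the heart controls, 236 CPM in the muscle controls and 898 CPM in the tongue controls, against at most 15.96 CPM in the SN-011 libraries of those 3 tissues. Markers of pancreatic acinar cells summed to 37.0 CPM in muscle SN-011 replicate 2, against at most 0.39 CPM in the other muscle libraries. *Trex1* was at 0 counts in all 24 samples, but it shares its exons with *Atrip*, so this does not check the genotype.

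ISG15 conjugation runs in the same order as ubiquitination. UBA7 activates the C-terminal glycine of ISG15 at the expense of ATP, UBE2L6 takes over the activated modifier as a thioester, and an E3 ligase transfers it to a lysine of the target, often of a protein still being made. USP18 cleaves the bond, and apart from its protease activity it binds the interferon receptor subunit IFNAR2 with the help of STAT2 and dampens receptor signalling, so the 6 genes hold both the pathway and one of its brakes. The genes are classical interferon-stimulated genes, which the ISGF3 complex switches on through interferon-stimulated response elements (ISRE).

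The sequence at the end of the *Isg15* reading frame carries the residues on which the whole cascade acts. It is shown from the GENCODE M21 transcript on GRCm38, chr4:156199584-156199631, minus strand, with the 6 codons for leucine, arginine, leucine, arginine, glycine and glycine in capitals.
Isg15 coding end: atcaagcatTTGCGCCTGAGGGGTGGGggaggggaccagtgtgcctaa
The reading frame holds 161 codons before the stop, and 6 of them follow the capitals. These last residues are removed from the precursor before the second of the glycines in the motif can be activated by UBA7 and later cut free by USP18.

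The promoter of the same gene is shown because it was the only one of the 5 available whose window held the ISRE letters. RefSeq windows on GRCm38.p6 of 250 bases before to 50 bases after the start were matched for 5 of the 6 genes, all but *Usp18*. The 110 bases before the *Isg15* start, chr4:156200819-156200928, minus strand, are printed with the matches to the ISRE letters, which are GAAA, any 2 bases and GAAA again, in capitals.
Isg15 promoter: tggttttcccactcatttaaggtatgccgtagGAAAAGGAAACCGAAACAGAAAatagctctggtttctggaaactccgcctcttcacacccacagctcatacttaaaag
The 3 matches overlap and fill 22 bases, from 78 to 57 bases before the start. Searched on both strands, these letters were found in 3.44% of 32851 promoter windows of this length and the longer form with a C after them, which contains them, in 0.819%. The letters TTCNNNGAA of a gamma-activated site were found in 8.3% of all windows and in 0 of the 5 matched here. A missing match says only that these letters are not in that window.

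The 6 genes lie on 5 chromosomes of GRCm38, and the counts cover their exons. *Isg15* (ENSMUSG00000035692) is at chromosome 4, 156199424 to 156200818, minus strand, with 756 exonic bases. *Uba7* (ENSMUSG00000032596) is at chromosome 9, 107975505 to 107984060, plus strand, *Ube2l6* (ENSMUSG00000027078) at chromosome 2, 84798828 to 84810335, plus strand, and *Trim25* (ENSMUSG00000000275) at chromosome 11, 88999376 to 89020293, plus strand. *Herc6* (ENSMUSG00000029798) and *Usp18* (ENSMUSG00000030107) are both on chromosome 6, plus strand, at 57581000 to 57664632 and 121245906 to 121270917. For *Herc6*, 13.7% of the exonic bases are shared with another annotated gene, so that read pairs fitting both may be missing from its counts. The corresponding shares were 3.48% for *Uba7* and 4.44% for *Usp18*, and the gene models that overlap them had at most 21 counts in any sample. A processed copy of *Isg15* on chromosome 17, AC151275.1, had 0 to 10 counts.

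In the control mice, *Isg15* was the most abundant transcript of the 6 in each tissue and *Herc6* the least, on the scale of CPM per kilobase of exon with one TMM scaling over all 24 samples. Muscle stood lowest for the modifier and its attaching enzymes. By edgeR's quasi-likelihood test over the 24 samples with Benjamini-Hochberg adjustment over 19731 genes, all 6 genes were lower in muscle than in heart, 5 of 6 lower than in stomach and 4 of 6 lower than in tongue, with log2 differences for the 6 between heart and muscle of 1.18 to 2.26. Of all genes tested, 33.7% differed between heart and muscle, 51.6% between stomach and muscle and 38.1% between muscle and tongue, and the median log2 difference of all genes was 0.11, 0.12 and −0.08. Fewer cells of an expressing type and less RNA per cell cannot be told apart in these bulk samples.

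The modifier itself was highest in tongue and heart. *Isg15* averaged 412 ± 237 per kilobase in tongue (SD, n = 3), 366 ± 22.7 in heart, 277 ± 71.3 in stomach and 76.1 ± 15.5 in muscle. Neighbours in this order differed only at the last step, between stomach and muscle (log2 difference 1.86, SE 0.38, edgeR adjusted p = 0.000336), and the SD in the tongue controls was large beside the mean.

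The activating enzyme favoured the heart. *Uba7* averaged 35.5 ± 5.39 per kilobase in heart, 21.2 ± 0.543 in tongue, 20.4 ± 4.38 in stomach and 7.86 ± 0.754 in muscle (SD, n = 3). Heart exceeded tongue (log2 difference 0.74, edgeR adjusted p = 0.0119) and stomach exceeded muscle (1.38, edgeR adjusted p = 2.03e-05), whereas tongue and stomach did not differ beyond their spread (log2 difference of stomach minus tongue −0.05, 95% confidence interval −0.49 to 0.39).

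The conjugating enzyme was spread more evenly over the 3 organs above muscle. *Ube2l6* averaged 73.4 ± 9.93 per kilobase in heart, 63.8 ± 14.2 in tongue, 53.5 ± 8.41 in stomach and 19.7 ± 2.72 in muscle (SD, n = 3). Of its neighbours, stomach and muscle differed (log2 difference 1.44, edgeR adjusted p = 5.03e-05).

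The ligases went different ways. *Herc6* averaged 7.98 ± 2.06 per kilobase in heart, 3.93 ± 0.721 in tongue, 3.76 ± 1.08 in stomach and 1.70 ± 0.269 in muscle (SD, n = 3), and no neighbours in this order differed, although heart and muscle did (log2 difference 2.23, edgeR adjusted p = 0.00541). *Trim25* was instead highest in stomach, at 47.8 ± 7.55, followed by tongue at 30.3 ± 8.23, heart at 23.96 ± 1.36 and muscle at 10.6 ± 0.766. Stomach exceeded tongue for *Trim25* (log2 difference 0.66, edgeR adjusted p = 0.0158) and heart exceeded muscle (1.18, edgeR adjusted p = 0.00018). The stomach and tongue call for *Trim25* was lost when the *Xist*-positive control replicate 1 was left out of all 4 tissues, where 0 of the 6 genes differed between these organs.

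For the protease, muscle and tongue shared the lowest level on this scale. *Usp18* averaged 75.3 ± 9.10 per kilobase in heart, 50.6 ± 12.0 in stomach, 33.1 ± 0.507 in muscle and 33.1 ± 8.003 in tongue (SD, n = 3). On the joint TMM scale, muscle and tongue were level for *Usp18* (log2 difference 0.00, 95% confidence interval −0.50 to 0.50). *Isg15* was 5.41-fold lower in muscle than in tongue. The level of *Usp18* rests on the scaling, with joint TMM factors of 0.647 to 0.675 in muscle controls and 1.10 to 1.23 in tongue controls. Its raw counts were 971 to 1101 in muscle controls and 1404 to 2035 in tongue controls. Stomach exceeded muscle (log2 difference 0.61, edgeR adjusted p = 0.0393) and heart exceeded tongue (1.19, edgeR adjusted p = 0.000902).

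The remaining pairs of organs separated few of the genes. Heart and stomach differed for *Uba7*, higher in heart, and *Trim25*, higher in stomach, with 42.5% of all genes differing. Heart and tongue differed for *Uba7* and *Usp18*, both higher in heart, with 29.1% of all genes differing. Stomach and tongue differed for *Trim25* alone, against 36.9% of all genes. Without control replicate 1 in any tissue, heart and stomach differed for 1 of the 6 genes and heart and tongue for 1, and without heart control replicate 3 alone heart and tongue also differed for 1. The shares of all genes in these fits were not counted.

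After SN-011, the transcripts of the cascade lay lower on average in nearly every tissue, but none passed the threshold. Of the 24 combinations of gene and tissue, 21 had a negative log2 fold change. Of all genes tested, 51.4% were negative in heart, 49.8% in stomach, 55.5% in muscle and 51.5% in tongue. In 13 combinations every SN-011 sample lay below every control sample, against 13.1%, 15.2%, 19.8% and 8.38% of all genes in these tissues. In 1, *Usp18* in muscle, every SN-011 sample lay above, against 14.7% of all genes in muscle. By edgeR's quasi-likelihood test within each tissue with Benjamini-Hochberg adjustment, 0 of the 6 genes had an adjusted p under 0.05 in heart, stomach, muscle or tongue, where 0.848%, 0%, 0.0141% and 0% of all genes did. The exact two-sided permutation test of 3 samples against 3 cannot give a p below 0.1, and gave this value for the 14 combinations without overlap (0.171 after Benjamini-Hochberg adjustment over the 24). In the paragraphs on the single tissues, CPM values carry the TMM scaling of that tissue.

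**Figure D1:**
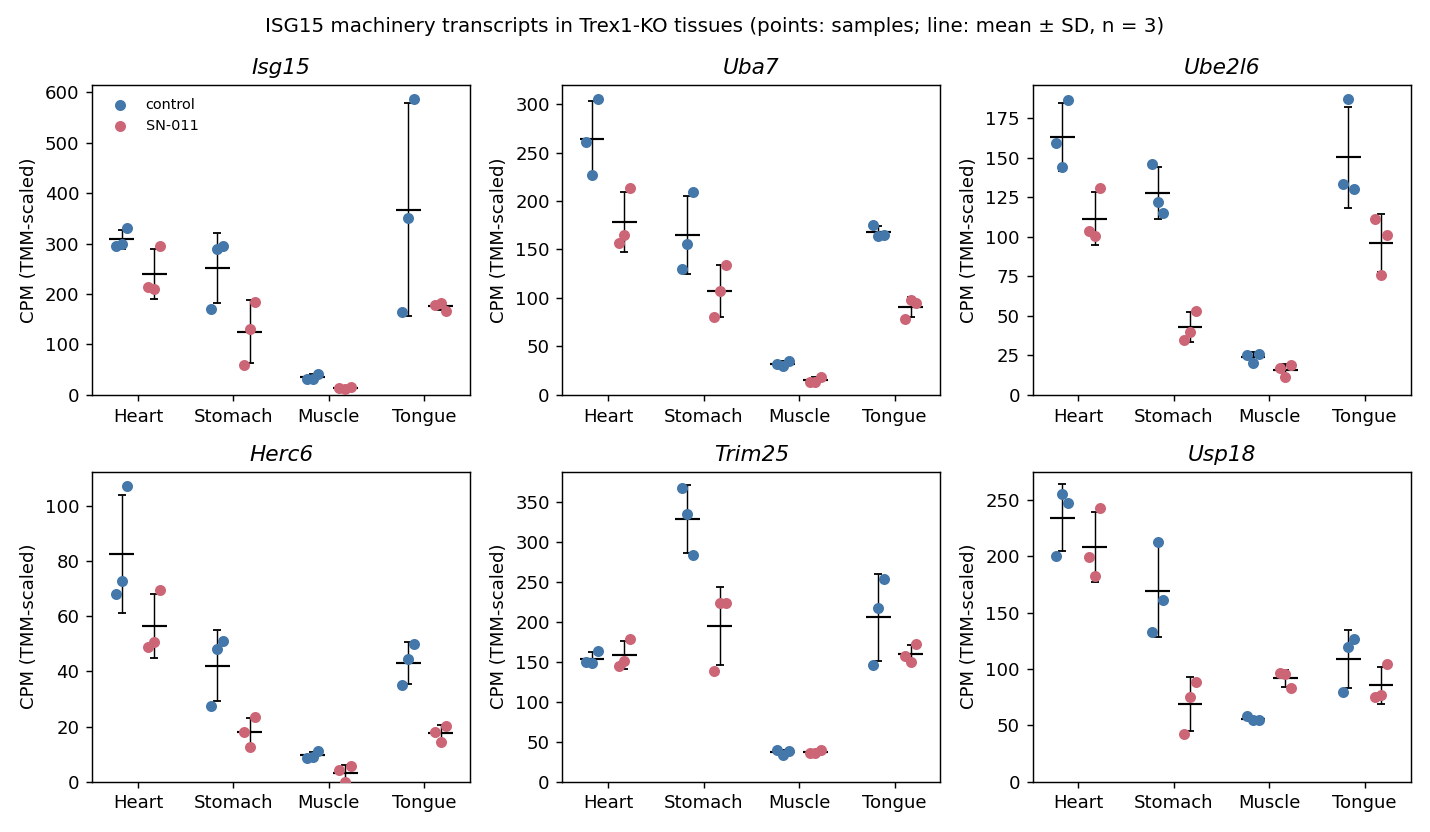
CPM of each of the 6 genes in every sample (y axes, linear, from 0) by tissue (x axes), with control in blue and SN-011 in red; the line and bars are the mean and SD of 3 samples. *Usp18* in muscle is the one panel entry where the SN-011 samples (83.0 to 96.1 CPM) all sit above the controls (55.0 to 58.1 CPM), and tongue *Isg15* shows controls from 165 to 586 CPM.

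In the heart, the E1, the E2, *Herc6* and the modifier lay lower on average after SN-011, while the ligase *Trim25* and the protease lay closer to their control level. The 4 cardiac markers summed to 16300 to 23650 CPM in the controls and 21970 to 28690 CPM after SN-011. All 4 T cell markers had negative log2 fold changes (0 at an unadjusted p under 0.05), with sums of 73.3 to 139 and 62.9 to 101 CPM, as had all 4 B and plasma cell markers (1 at an unadjusted p under 0.05), with 52.9 to 264 and 25.2 to 120.3 CPM. Of the 5 macrophage markers, 4 were negative (1 lower and 1 higher at an unadjusted p under 0.05), with 860 to 1091 and 766 to 1143 CPM. No marker of these lists was at 0 in all heart samples, and their part in the differences was not tested. At an unadjusted p under 0.05, 4 of the 6 genes were lower and 0 higher, against 11.6% and 10.8% of all genes, and for 2 genes every SN-011 sample lay below every control, against 13.1% of all genes. The median log2 fold change of the 6 was −0.46, against −0.01 for all genes tested. DESeq2 and edgeR's exact test each called *Uba7* and *Ube2l6* lower at an adjusted p under 0.05, where they called 8.43% and 5.68% of all genes.

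Both heart genes without overlap were enzymes at the start of the cascade. *Uba7* stood at 261, 227 and 305 CPM in the heart controls and at 156, 165 and 213 CPM after SN-011. *Ube2l6* stood at 159, 144 and 187 CPM in the controls and at 104, 100.4 and 131 CPM after SN-011. The log2 fold changes were −0.57 for *Uba7* (SE 0.16, edgeR adjusted p = 0.107) and −0.55 for *Ube2l6* (SE 0.15, edgeR adjusted p = 0.0936).

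For the modifier, 1 treated heart reached the controls. *Isg15* was at 296, 299 and 330.0 CPM in the controls and at 213, 210.0 and 296 CPM after SN-011, so that replicate 3 of the treated group touched the lowest control (log2 fold change −0.36, SE 0.16, edgeR adjusted p = 0.217, and −0.56 without that replicate). *Herc6* ranged from 68.2 to 107 CPM in the controls and from 48.8 to 69.7 CPM after SN-011 (−0.55, edgeR adjusted p = 0.159, and −0.33 without control replicate 3). SN-011 replicate 3 was the highest of its group for all 6 genes. *Trim25* had a log2 fold change of 0.04 (95% confidence interval −0.23 to 0.31), whose sign turned under library-size scaling (−0.11) and without that replicate (−0.069), and *Usp18* one of −0.17 (−0.51 to 0.17).

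In the stomach, all 6 genes had lower means after SN-011, with the largest fold change for the conjugating enzyme. At an unadjusted p under 0.05, 5 of the 6 were lower and 0 higher, against 11.4% and 13.2% of all genes, and 4 of the 6 had no overlap between the groups in the lower direction, against 15.2% of all genes. The median log2 fold change of the 6 was −1.12, against 0.00 for all genes. DESeq2 and edgeR's exact test each called *Ube2l6*, *Herc6* and *Usp18* lower, where they called 14% and 10.8% of all genes.

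*Ube2l6* had the largest fitted fold change of the 24 combinations. It stood at 146, 122 and 115 CPM in the stomach controls and at 34.9, 39.9 and 53.4 CPM after SN-011. The treated samples thus lay well below the lowest control, with a log2 fold change of −1.58 (SE 0.26, edgeR adjusted p = 0.0618), a 2.99-fold lower level. With all 24 samples in one fit, which estimates the spread from every tissue, the adjusted p of *Ube2l6* was 0.000479 and 4 of the 6 genes passed, namely *Ube2l6*, *Usp18*, *Trim25* and *Uba7*, where 13.9% of all genes passed.

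The protease lay lower in the stomach together with the enzymes it opposes. *Usp18* was at 133, 213 and 162 CPM in the stomach controls and at 42.5, 75.4 and 88.9 CPM after SN-011. No treated sample reached a control, and the log2 fold change was −1.30 (SE 0.34, edgeR adjusted p = 0.0898). *Herc6* ranged from 27.3 to 51.0 CPM in the controls and from 12.5 to 23.3 CPM after SN-011 (−1.24, edgeR adjusted p = 0.092). *Trim25* ranged from 284 to 368 CPM and from 139 to 224 CPM (−0.75, edgeR adjusted p = 0.179).

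The stomach modifier overlapped between the groups. *Isg15* was at 171, 289 and 295 CPM in the controls and at 59.9, 132 and 184 CPM after SN-011, so control replicate 1 lay below the highest treated sample (log2 fold change −1.01, SE 0.43, edgeR adjusted p = 0.197, and −0.67 without SN-011 replicate 1). *Uba7* ranged from 130 to 209 CPM in the controls and from 80.7 to 134 CPM after SN-011 (−0.62, edgeR adjusted p = 0.246). Markers of other cell types differed between the same samples. The 4 B and plasma cell markers summed to 309 to 742 CPM in the controls and 150 to 214 CPM after SN-011, with 3 of 4 lower at an unadjusted p under 0.05, and the 4 stomach markers to 13980 to 52820 and 3978 to 16510 CPM. The T cell markers summed to 32.4 to 46.3 and 12.1 to 34.2 CPM, and the macrophage markers to 160 to 355 and 175 to 414 CPM. Markers of tongue epithelium, a squamous epithelium, summed to 26.6 to 75.3 CPM in the controls and 177 to 283 CPM after SN-011. No marker of these lists was at 0 in all stomach samples. Their part in the difference was not tested.

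In the muscle, the modifier and 3 of the enzymes that attach it lay below their controls after SN-011 and the protease above. At an unadjusted p under 0.05, 3 of the 6 genes were lower and 1 higher, against 5.8% and 8.96% of all genes. Every SN-011 sample lay below every control for 4 genes, against 19.8% of all genes, and above every control for 1, against 14.7%. The median log2 fold change of the 6 was −0.82, against −0.08 for all genes, a median that moved to −0.31 under scaling by library size alone. DESeq2 and edgeR's exact test each called *Isg15* and *Uba7* lower and *Usp18* higher, where they called 6.2% and 3.37% of all genes. Without SN-011 replicate 2, the library with few detected genes, 4 of the 6 passed the adjusted threshold in the quasi-likelihood test, *Isg15*, *Uba7* and *Herc6* lower and *Usp18* higher, where 7.4% of all genes passed.

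The modifier and its E1 kept clear of the control range in muscle. *Isg15* stood at 31.2, 31.0 and 42.3 CPM in the controls and at 12.7, 12.3 and 15.1 CPM after SN-011. *Uba7* stood at 31.5, 29.4 and 34.7 CPM in the controls and at 13.6, 13.6 and 18.9 CPM after SN-011. In both genes the groups were far apart relative to their spread, with log2 fold changes of −1.38 for *Isg15* (SE 0.19, edgeR adjusted p = 0.0764) and −1.05 for *Uba7* (SE 0.19, edgeR adjusted p = 0.115). The adjusted p-values without SN-011 replicate 2 were 0.0229 and 0.0308.

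*Usp18*, the protease, took the opposite course. It stood at 58.1, 55.0 and 55.0 CPM in the muscle controls and at 96.1, 96.0 and 83.0 CPM after SN-011. The controls differed by a few CPM and every treated sample lay far above them, with a log2 fold change of 0.71 (SE 0.11, 95% confidence interval 0.44 to 0.98, unadjusted p = 0.000542 and adjusted p = 0.0949 by edgeR). The value without SN-011 replicate 2 was 0.68 (adjusted p = 0.0287), and over all alternatives it lay between 0.48 and 0.78. The raw counts ran in the same direction, with 971 to 1101 in the controls and 1177 to 1481 after SN-011.

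The other muscle genes were less clear. *Herc6* was at 8.76, 8.77 and 11.1 CPM in the controls and at 4.09, 0 and 5.56 CPM after SN-011, where the 0 belongs to the library in which many genes of this abundance were at 0. The log2 fold change of *Herc6* was −1.56 (SE 1.19, edgeR adjusted p = 0.605) with that library and −0.98 (edgeR adjusted p = 0.0463) without it. *Ube2l6* ranged from 20.2 to 26.2 CPM in the controls and from 11.3 to 19.1 CPM after SN-011 (−0.59, edgeR adjusted p = 0.328), and *Trim25* had a log2 fold change of 0.01 (95% confidence interval −0.28 to 0.31), whose sign turned under 7 of the 15 alternatives (down to −0.22). The 3 endothelial markers summed to 157 to 185 CPM in the controls and 123 to 140 CPM after SN-011, with 1 of 3 lower at an unadjusted p under 0.05. The 5 macrophage markers summed to 194 to 236 and 241 to 279 CPM, with 1 of 5 higher and 0 lower, and neither list had a marker at 0 in all samples. The 4 skeletal muscle markers summed to 113000 to 124700 and 133800 to 185500 CPM. Their part in the difference was not tested.

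In the tongue, the E1 and the main ligase lay below their controls with tight groups, while the modifier varied more between the controls than between the groups. At an unadjusted p under 0.05, 4 of the 6 genes were lower and 0 higher, against 7.33% and 5.17% of all genes, and 3 of the 6 did not overlap, all lower, against 8.38% of all genes. The median log2 fold change of the 6 was −0.77, against −0.01 for all genes. DESeq2 and edgeR's exact test each called *Uba7* and *Herc6* lower, where they called 2.52% and 1.53% of all genes.

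The E1 and the ligase had the smallest p-values of the 6. *Uba7* stood at 175, 164 and 165 CPM in the tongue controls and at 78.4, 97.9 and 94.7 CPM after SN-011. *Herc6* stood at 34.9, 44.7 and 49.96 CPM in the controls and at 18.03, 14.6 and 20.2 CPM after SN-011. No treated tongue came near a control in either gene, with log2 fold changes of −0.89 for *Uba7* (SE 0.13, edgeR adjusted p = 0.221) and −1.29 for *Herc6* (SE 0.19, edgeR adjusted p = 0.256).

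The 3 tongue controls differed among themselves in *Isg15*. It was at 165, 352 and 586 CPM in the controls and at 179, 183 and 167 CPM after SN-011, so control replicate 1 lay below every treated sample (log2 fold change −1.06, SE 0.40, edgeR adjusted p = 0.372). The tongue epithelial markers summed to 5686, 32180 and 47210 CPM in the same controls, in the same order, and to 7976 to 15890 CPM after SN-011, with *Krt13*, *Krt4*, *Krt76* and *Krt84* all detected. The macrophage markers ran the other way in the controls, at 918, 531 and 383 CPM, and control replicate 3 had 365 CPM of neutrophil markers against at most 5.37 CPM in the other tongue samples. Their part in the difference was not tested. Without control replicate 1, the log2 fold change of *Isg15* was −1.41 (edgeR adjusted p = 0.0058), and without control replicate 3 it was −0.56 (edgeR adjusted p = 0.567). In the fit without control replicate 1, *Isg15*, *Uba7*, *Herc6* and *Trim25* passed the threshold, as did 12.5% of all genes.

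Of the remaining tongue genes, the E2 did not overlap and the other two did. *Ube2l6* ranged from 131 to 187 CPM in the controls and from 75.8 to 111 CPM after SN-011 (log2 fold change −0.65, edgeR adjusted p = 0.327). *Trim25* ranged from 146 to 253 CPM and from 150 to 172 CPM (−0.36, edgeR adjusted p = 0.487). *Usp18* ranged from 79.8 to 127 CPM and from 74.9 to 104 CPM (−0.35, edgeR adjusted p = 0.518).

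**Figure D2:**
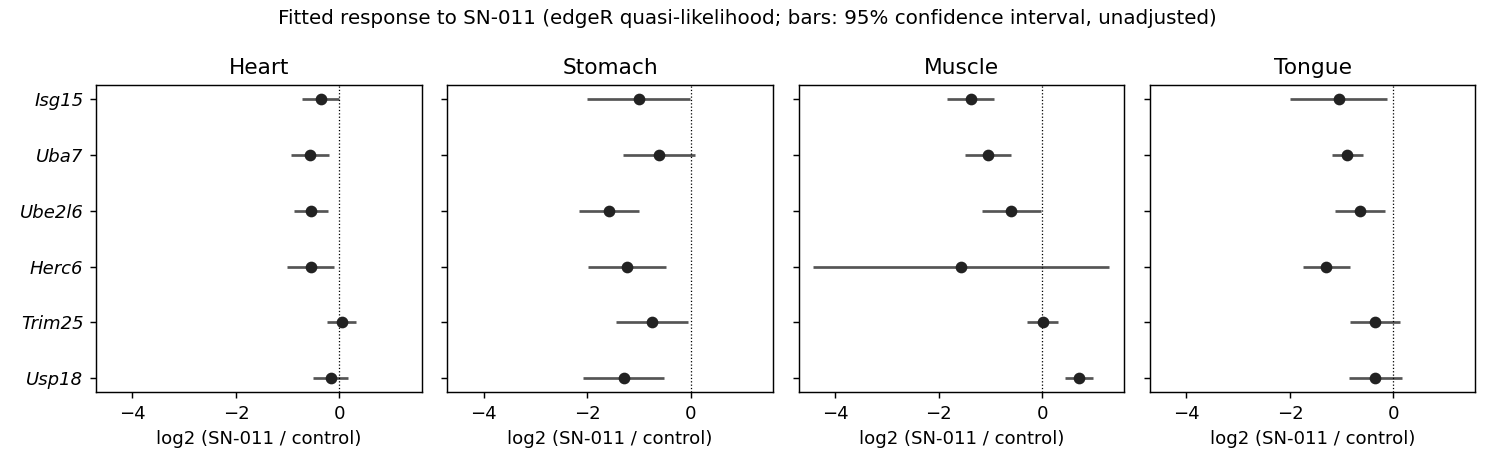
Fitted log2 fold change of SN-011 against control (x axes) for the 6 genes (y axes) in each tissue, with points for edgeR estimates and bars for unadjusted 95% confidence intervals; the dotted line marks no difference. *Usp18* sits at 0.71 in muscle and at −1.30 in stomach, and the wide bar of *Herc6* in muscle (−4.42 to 1.30) comes with the library at 0.

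The difference between tissues in the response to SN-011 was tested directly, as an interaction in the fit of all 24 samples, and 1 of the 6 genes passed for 1 pair of tissues. *Usp18* responded differently in stomach and muscle, by −1.95 on the log2 scale (SE 0.34, 95% confidence interval −2.66 to −1.23, edgeR adjusted p = 0.00365), where 6.95% of all genes passed and the median difference of all genes was 0.28. All 3 treated samples lay below all 3 controls in stomach and above them in muscle. This call was made under each of the 29 alternatives tried, with values of −2.17 to −1.63.

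For the other pairs, 0 of the 6 genes passed by edgeR's test, against 2.01% of all genes for heart and stomach, 0.00507% for heart and muscle, 0% for heart and tongue, 0.821% for stomach and tongue and 0.0355% for muscle and tongue. *Ube2l6* lay further down in stomach than in the other organs, by 1.06 than in heart (edgeR adjusted p = 0.108), 0.96 than in muscle (0.0889) and 0.97 than in tongue (0.161). Without muscle SN-011 replicate 2, the first 2 of these passed (0.0346 and 0.0213). For *Isg15*, heart and muscle were 1.09 apart (95% confidence interval 0.01 to 2.18, edgeR adjusted p = 0.755), with the lower response in muscle. With p unadjusted, 3 of the 6 passed 0.05 for heart and stomach (17% of all genes), 2 for heart and muscle (6.6%), 0 for heart and tongue (2.83%), 2 for stomach and tongue (15.4%) and 1 for muscle and tongue (8.1%), beside 3 for stomach and muscle (24.1%). DESeq2 passed 2 for heart and stomach, 2 for stomach and muscle and 0 for the other pairs. The share of all genes that DESeq2 passed here was not counted, so its counts cannot be read as particular to the 6. A miss of the threshold does not show that the organs respond alike, since the intervals for *Isg15* and *Herc6* spanned more than 2 log2 units.

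Ratios within a sample remove the library scaling and set the modifier and its attaching enzymes against the protease that undoes their work. Each is the log2 of the counts per kilobase of one gene over those of *Usp18* in the same library. Of the 20 comparisons of 5 ratios in 4 tissues, 9 did not overlap between the groups, each with an exact two-sided permutation p = 0.1, the smallest possible, and 0.222 after Benjamini-Hochberg adjustment over the 20. How many of all genes would separate in this way when set against *Usp18* was not counted. The counts of ratios without overlap therefore describe these genes alone.

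All 5 ratios were without overlap in muscle, and all lower after SN-011. They share *Usp18*, which itself lay above every control in muscle (log2 fold change 0.71), so they are not 5 separate results. *Isg15* over *Usp18* was 0.99, 1.06 and 1.505 in the muscle controls and −1.03, −1.08 and −0.58 after SN-011. The modifier thus exceeded the protease in each control and lay below it in each treated muscle, with means of 1.18 ± 0.28 and −0.90 ± 0.28 (SD, n = 3) and a difference of −2.08. *Uba7* over *Usp18* went from −2.08 ± 0.13 to −3.85 ± 0.39 and *Ube2l6* over *Usp18* from −0.76 ± 0.19 to −2.09 ± 0.49. *Trim25* over *Usp18* went from −1.65 ± 0.09 to −2.34 ± 0.20, although *Trim25* itself was level. *Herc6* over *Usp18* differed by −3.13 with the library at 0 set to 3 counts and by −1.67 without it.

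In the other tissues 4 of the 15 ratios did not overlap, and 1 of these was higher. In stomach, *Uba7* over *Usp18* was −1.30 ± 0.41 in the controls and −0.59 ± 0.22 after SN-011, without overlap and upward, and *Isg15* over *Usp18* overlapped at 2.44 ± 0.27 and 2.67 ± 0.28. In tongue, *Herc6* over *Usp18* was −3.06 ± 0.12 and −4.01 ± 0.19, and *Uba7* over *Usp18* −0.61 ± 0.42 and −1.17 ± 0.24, both without overlap. In heart only *Ube2l6* over *Usp18* did not overlap, at −0.04 ± 0.27 and −0.42 ± 0.04.

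**Figure D3:**
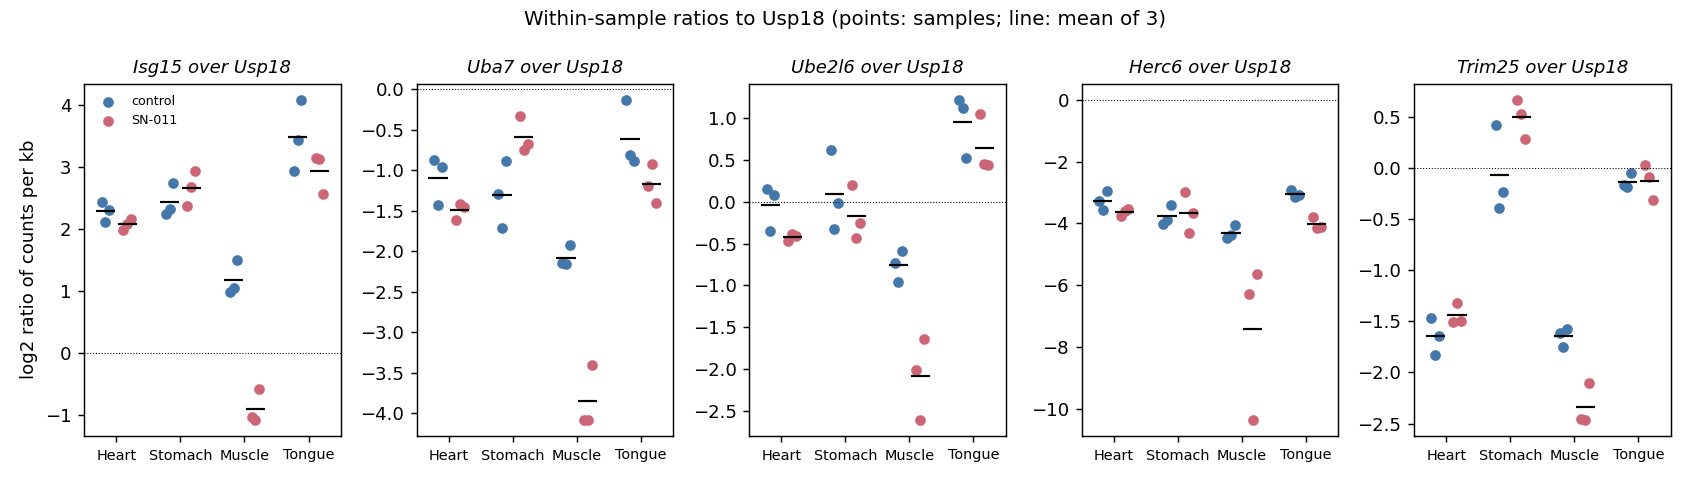
Log2 ratio of counts per kilobase of *Isg15*, *Uba7*, *Ube2l6*, *Herc6* and *Trim25* over *Usp18* (y axes) in every sample by tissue (x axes), with control in blue and SN-011 in red, lines for the mean of 3 samples and a dotted line at equal levels; each panel has its own scale, and the lowest *Herc6* point is the library at 0 set to 3 counts. In muscle the treated samples lie below the controls in all 5 panels, and for *Isg15* they cross the line of equal levels (−1.08 to −0.58 against 0.99 to 1.505).

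Per kilobase, *Isg15* was the largest part of the 6 transcripts in 7 of the 8 groups and *Usp18* in treated muscle. *Isg15* made up 62.9% ± 0.813 of the summed counts per kilobase of the 6 in heart controls (SD, n = 3), 60.4% ± 7.23 in stomach and 69.8% ± 10.8 in tongue, and 62.3% ± 1.25, 60.8% ± 7.31 and 65.7% ± 3.52 after SN-011. In muscle its share was 50.8% ± 3.88 in the controls and 26.1% ± 2.22 after SN-011. The share of *Usp18* was 22.4% ± 2.66 in muscle controls and 48.8% ± 5.40 after SN-011, whereas it lay between 6.31% and 14.8% on average in the other 6 groups. *Trim25* took a larger mean share after SN-011 in each tissue. It went from 4.12% ± 0.0973 to 5.45% ± 0.400 in heart and from 7.14% ± 0.654 to 9.59% ± 0.379 in muscle. In tongue it went from 5.70% ± 1.15 to 7.83% ± 0.536, and in stomach from 10.9% ± 3.39 to 13.6% ± 2.7. The groups overlapped in stomach alone (exact permutation p = 0.3, against 0.1 in heart, muscle and tongue, the smallest possible). Its own log2 fold changes were 0.04 in heart, 0.01 in muscle, −0.36 in tongue and −0.75 in stomach. Its larger share thus went with smaller amounts of other members. The shares depend on the exon length assigned to each gene, and with the length of the longest transcript or with exon bases of no other gene the same gene came highest in each group.

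**Figure D4:**
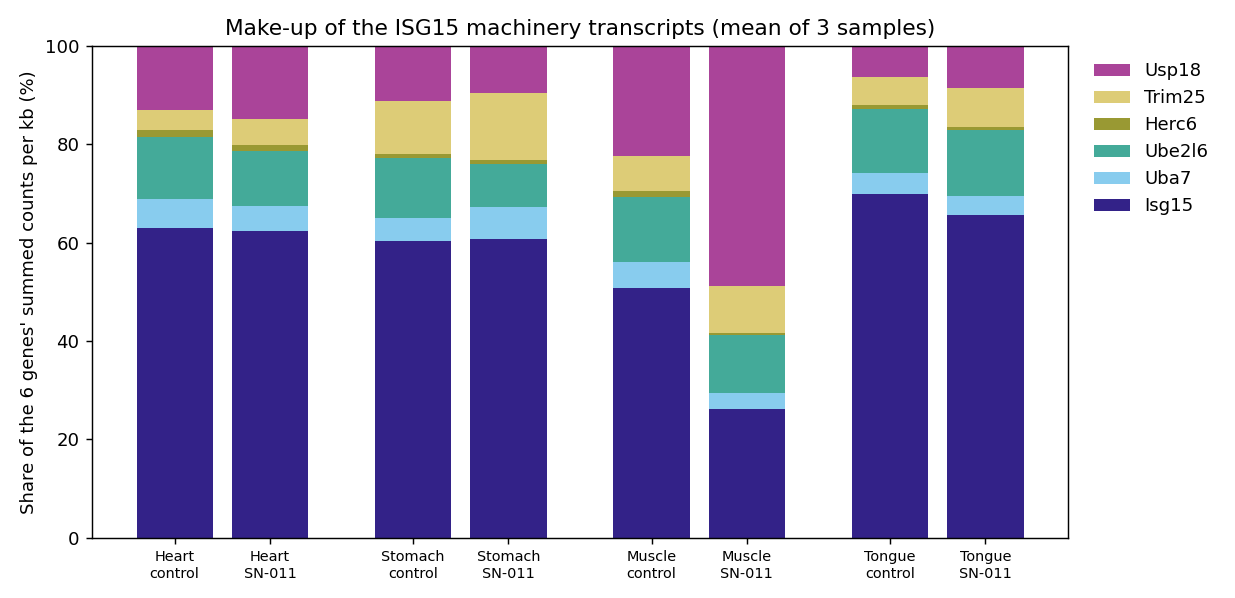
Mean share of each gene in the summed counts per kilobase of the 6 genes (y axis, percent, from 0 to 100) for the 8 groups of 3 samples (x axis). *Isg15* fills 60.4% to 69.8% of the bar in heart, stomach and tongue controls, and in treated muscle *Usp18* (48.8%) is the largest part.

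A list of 12 further genes of the pathway was read beside the 6. They were *Arih1* (a further ISG15 ligase), the proteases *Usp2*, *Usp5*, *Usp13*, *Usp14*, *Usp16* and *Usp21* reported to act on ISG15, *Ifnar2* and *Stat2* (the partners of USP18 at the interferon receptor), *Skp2* (of the ubiquitin ligase that degrades USP18) and *Itgal* and *Itgb2* (the integrin that binds free ISG15). By edgeR's quasi-likelihood test, 0 of 12 passed in any tissue. At an unadjusted p under 0.05, 3 were lower and 0 higher in heart, against 11.6% and 10.8% of all genes. In stomach 2 were lower and 3 higher (11.4% and 13.2% of all genes). In muscle 1 was lower and 2 higher (5.8% and 8.96%), and in tongue 1 lower and 1 higher (7.33% and 5.17%). The median log2 fold changes of the 12 were −0.06 in heart, 0.11 in stomach, −0.25 in muscle and −0.01 in tongue. DESeq2 called 0, 2, 1 and 2 of the 12 in these tissues, against 8.43%, 14%, 6.2% and 2.52% of all genes, and edgeR's exact test called 0, 2, 0 and 0, against 5.68%, 10.8%, 3.37% and 1.53%.

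The gene with the smallest p differed between the tissues. In heart it was *Itgb2* (log2 fold change −0.58, edgeR adjusted p = 0.163) and in stomach *Usp14* (−0.88, edgeR adjusted p = 0.0796), which ran from 66.6 to 88.4 CPM in the controls and from 40.4 to 43.3 CPM after SN-011. In muscle it was *Stat2* (−0.84, edgeR adjusted p = 0.236), at 34.7, 37.0 and 38.3 CPM in the controls and 19.7, 13.8 and 27.7 CPM after SN-011. The log2 fold change of this adaptor of USP18 was negative in the other tissues too, at −0.43 in heart, −0.33 in stomach and −0.51 in tongue. In stomach the groups overlapped, at 132 to 351 CPM in the controls and 161 to 280 CPM after SN-011 (SE 0.41, edgeR adjusted p = 0.654). In tongue the smallest p belonged to *Usp13* (0.47, edgeR adjusted p = 0.268).

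The ubiquitin and NEDD8 counterparts of the 6 genes made up a second list of 12, among them the modifiers *Ubb* and *Nedd8*, the E1 enzymes *Uba1*, *Uba3* and *Uba6*, the E2 enzymes *Ube2l3* and *Ube2m* and the ligases *Herc1*, *Herc2*, *Herc3* and *Herc4*. Again 0 of 12 passed in any tissue by edgeR's quasi-likelihood test. Unadjusted, 1 was lower and 2 higher in heart at p under 0.05, against 11.6% and 10.8% of all genes. In stomach 2 were lower and 0 higher (11.4% and 13.2% of all genes). In muscle 1 was lower and 2 higher (5.8% and 8.96%), and in tongue 0 lower and 1 higher (7.33% and 5.17%). The median log2 fold changes of the list were 0.10 in heart, −0.30 in stomach, −0.06 in muscle and −0.10 in tongue. Among the genes named here, DESeq2 called *Ubb* higher in heart and muscle and *Herc3* lower in muscle, and edgeR's exact test called the muscle genes alone. Both tools called 0 of the 12 in stomach and tongue. Of all genes, DESeq2 called 8.43% in heart, 14% in stomach, 6.2% in muscle and 2.52% in tongue. The shares for edgeR's exact test were 5.68%, 10.8%, 3.37% and 1.53%.

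*Ubb*, which encodes ubiquitin, lay above its controls in the muscles where *Isg15* lay below. It stood at 857, 591 and 581 CPM in muscle controls and at 1210, 1281 and 1295 CPM after SN-011. The groups did not overlap, with a log2 fold change of 0.90 for *Ubb* (edgeR adjusted p = 0.132), the smallest p of the list in muscle. In stomach the smallest p belonged to *Herc4* (−0.56, edgeR adjusted p = 0.166).

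Among 15825 genes with a mean of at least 1 CPM, the 5 outside the 6 whose level followed *Isg15* most closely over the 24 samples, by Pearson's r of log2 CPM, were *Oas3* (0.957), which makes the activator of RNase L, *Ddx58* (0.956), which encodes RIG-I, *Ifi44* (0.954), *Psmb9* (0.946), an immunoproteasome subunit, and *Rtp4* (0.946). Of the enzymes, *Uba7* ranked 10 (r = 0.930), *Ube2l6* 25 (0.897), *Trim25* 265 (0.805) and *Herc6* 342 (0.786). *Usp18* ranked 7116, with r = 0.259. These correlations run over 4 tissues and 2 treatments that all genes share, so they describe the pattern and carry no test.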

How the data were processed

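RNA-Seq of 24 samples was used, 3 in each group of tissue and treatment. The authors deposited raw counts of read pairs per gene for 54532 genes, with no normalization. The labels name HISAT2, HTSeq and mm10, whereas the methods name Trimmomatic, hisat2 and featureCounts with uniquely mapped pairs, so the counter is uncertain. Versions are not given in the sources used here. Of the identifiers, 54495 were matched to GENCODE M21 of GRCm38 for symbols, lengths and positions. Total counts were 14253416 to 18443329, and 3 counts, the smallest level shown, equal 0.163 to 0.21 CPM, which covers counting error only. Replicate pairs differed by more than sampling noise (chi-square per degree of freedom 5.49 to 212 over 24 pairs).

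SN-011 was compared with control inside each tissue by the quasi-likelihood test of edgeR 4.0.16 under R 4.3.3, after filterByExpr (10 counts at least, 15 in total) and TMM scaling. Fold changes carry a prior count of 0.125, and the threshold was 0.05 after Benjamini-Hochberg adjustment. Levels between tissues and differences of response used 1 fit of 8 groups over 19731 genes. Ratios and single values were compared by exact two-sided permutation over 20 relabellings. The scripts were tested on simulated data. Alternatives tried were no filter, at least 10 counts in every sample, scaling by library size or by DESeq2's size factors, the joint fit, DESeq2 1.42.0, edgeR's exact test, the replicate block, the longest transcript as length and each sample left out. Added after seeing the data were the fits without control replicate 1 in every tissue, without muscle SN-011 replicate 2 and control replicate 1, and lengths of unshared exon bases. The genes named are the 6, the 5 genes outside them with the highest Pearson correlation with *Isg15* over the samples (log2 CPM, prior count 2) and the 5 highest by deviations from group means, and from each further list the genes past the threshold or else that with the smallest p in each tissue. *Stat2* outside muscle was named after its values were seen. The smallest-p gene of the second list in heart and tongue is not reported here. The members and lists were chosen with earlier results of these data known. Python 3.11.15 with numpy 2.4.6, pandas 2.3.3, scipy 1.17.1 and matplotlib 3.10.9 was used for tables and figures.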

Additional observations from a re-analysis of the deposited data

Results flagged for a closer look

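The response of *Usp18* to SN-011 differed between stomach and muscle by −1.95 on the log2 scale in the interaction test (edgeR adjusted p = 0.00365), with all treated samples lower than the controls in stomach (3 of 3) and higher in muscle (3 of 3). Groups of 3 samples are too small for a test of single outlying samples, so none was run.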

How the results depend on the processing

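In 5 of the 6 genes the sign of the fold change held in every tissue under all alternatives run, *Trim25* being the exception. The number of the 6 called after SN-011, 0 in each tissue, was higher with other tools and filters. It was 3 in heart, 3 in stomach, 1 in muscle and 1 in tongue with no filter on low counts (6.23%, 4.98%, 0.424% and 0.0638% of all genes), 1 in stomach and 1 in muscle with at least 10 counts in every sample (0.89% and 0.733%), and 4 in stomach and 2 in muscle in the joint fit (13.9% and 2.4%). DESeq2 gave 2, 3, 3 and 2 in heart, stomach, muscle and tongue (8.43%, 14%, 6.2% and 2.52%), and edgeR's exact test 2, 3, 3 and 2 (5.68%, 10.8%, 3.37% and 1.53%). With single samples left out it ranged from 0 to 4 in muscle (4 without SN-011 replicate 2, with 7.4% of all genes, and 4 without control replicate 1 as well, with 30.2%) and from 0 to 4 in tongue (4 without control replicate 1, with 12.5%). Filters change how many genes are tested; the cause of the other shifts was not tested.

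Control levels of stomach and tongue differed for 2 genes with DESeq2's size factors and 2 with DESeq2, and for 1 to 2 with single samples left out. Heart and tongue differed for 1 to 3 with single samples left out. Without control replicate 1 in every tissue the counts were 1 for heart and stomach, 1 for heart and tongue and 0 for stomach and tongue. Responses differed for 2 genes between heart and stomach and 2 between stomach and muscle with DESeq2, and for 0 to 1 and 1 to 2 with single samples left out. The shares of all genes under these settings were not counted. These counts therefore show only how far the calls for the members moved with the setting.

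*Trim25* turned to −0.11 in heart by library size alone (−0.069 to 0.10 with single samples left out). In muscle it turned to −0.029 with DESeq2's size factors, −0.22 by library size, −0.030 with at least 10 counts, −0.071 in the joint fit and −0.028 with DESeq2 (−0.058 to 0.079 with 1 or 2 samples left out). *Herc6* in muscle gave no value with at least 10 counts in every sample. Library size alone moved the median of all genes to −0.16 in heart and 0.18 in stomach. The signs of 3 ratios to *Usp18* changed sign with single samples left out, *Ube2l6* in stomach (−0.47 to 0.0019), *Herc6* in stomach (−0.23 to 0.44) and *Trim25* in tongue (−0.066 to 0.11), all overlapping between the groups.

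The replicate block left 0 of the 6 called in every tissue (1.5%, 1.06%, 0% and 0% of all genes in heart, stomach, muscle and tongue). Taking same-numbered samples of a treatment as 1 mouse gave 2 genes that differed between stomach and tongue controls, where the share of all genes was not counted. Same-numbered control and SN-011 samples correlated at 0.013 on average in heart, 0.058 in stomach, 0.035 in muscle and −0.307 in tongue, as deviations from group means. Single pairs ran from −0.451 in tongue to 0.311 in stomach. These values cannot show whether same-numbered samples share more than a number. In muscle SN-011 replicate 2, a gene at 0 cannot be read as absent.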

Other observations

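Within the 8 groups, where treatment and tissue no longer differ, the genes that varied with *Isg15* from sample to sample were others. By deviations from the group means over the 24 samples, the 5 highest outside the 6 among 15825 genes were *Tor1aip2* (r = 0.877), *Zdhhc13* (0.863), *H2-T22* (0.838), a non-classical MHC class I gene, *Krt75* (0.822), a keratin gene, and *F11r* (0.820), which encodes a junctional adhesion molecule. *Usp18* ranked 12 in this order (0.799) and *Trim25* 27 (0.765), ahead of *Uba7* at 531 (0.580), *Ube2l6* at 2687 (0.357) and *Herc6* at 3500 (0.307). *Usp18*, the member least like *Isg15* in level, was therefore the member closest to it within groups. The tongue controls, which spread most in *Isg15*, enter these values with all their differences in tissue make-up, and no test was made.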
